A study of Homo sapiens with 6 samples.

Results

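The splicing factor SRSF10, its nearest relatives and the kinases that phosphorylate proteins of its kind were followed in cells labelled Huh7, a human liver cancer line, after knockdown of SRSF10. The 10 genes are SRSF10, SRSF12, TRA2A, TRA2B, SRPK1, SRPK2, CLK1, CLK2, CLK3 and CLK4. They were found by symbol among 60623 genes in the table of FPKM (fragments scaled to gene length and to library size), and each symbol matched 1 row. The control group holds 3 libraries, with the genotype label WT. The knockdown group also holds 3 libraries, with the genotype label SRSF10 knockdown, and the series title names a short hairpin. No treatment is given for either group, and the labels do not say whether the control cells carried a hairpin, whether the knockdown cells were a pool or a clone, or whether replicates were separate cultures. P-values therefore measure only the spread between these libraries, which may be technical.

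SR proteins carry a domain of alternating arginine and serine residues, the RS domain, and use it to recruit the splicing machinery to exons. Phosphorylation of that domain sets where they sit and what they do. SRPK1 and SRPK2 phosphorylate RS domains mainly in the cytoplasm, which allows import into the nucleus, and the CLK kinases act in the nucleus, where they release SR proteins from storage in speckles. SRSF10 activates splicing when phosphorylated and represses it when dephosphorylated, as happens in heat shock and mitosis. TRA2A and TRA2B are SR-like proteins that bind GAA-rich exonic sequences and favour exon inclusion. Values per gene, as used here, do not show which exons were spliced.

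The libraries held an estimated 12720000 to 14350000 fragments assigned to genes, and mitochondrially encoded genes took 27.5% to 29.7% of the summed FPKM. Several defining liver markers were at or near 0. Of 15 hepatocyte markers, 5 reached 1 FPKM in any library, APOH and FGB among them, while ALB and AFP stayed below 1 FPKM and APOA2, GPC3 and TTR were listed at 0 throughout. The summed level of that list was 50.6 to 53.6 FPKM in control libraries and 53.9 to 56.2 FPKM in knockdown libraries. Markers of macrophages and leukocytes summed to at most 0.689 FPKM, and those of red cells to at most 0.257 FPKM. Summed fibroblast markers were at 4.18 to 5.24 FPKM in control libraries and 9.57 to 10.6 FPKM in knockdown libraries, nearly all of it LUM. COL1A1, COL3A1 and DCN stayed below 0.5 FPKM but were higher in every knockdown library than in any control, ACTA2, COL1A2 and PDGFRB were at or near 0, and the part of these genes in the results below was not tested. Endothelial markers, led by PECAM1 and KDR, summed to 5.43 to 6.13 FPKM in control libraries and 9.46 to 10.8 FPKM in knockdown libraries. VWF and CDH5 reached at most 0.071 and 0.047 FPKM in any library. Cholangiocyte markers, nearly all KRT19, summed to 93.8 to 98.0 FPKM in control libraries and 85.0 to 93.9 FPKM in knockdown libraries, and CFTR was listed at 0. KRT19 was not called, while SOX9 went from 1.32 to 4.34 FPKM (limma adjusted p = 0.00482) and KRT7 from 3.16 to 1.14 FPKM (limma adjusted p = 0.00405). SOX9 and KRT7 were under 1 FPKM in 1 library of their lower group. KDR was under 1 FPKM in every control library, so it passed the filter only through the knockdown group. The part of either list in the results was likewise not tested.

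Among the genes described, 9 passed the filter of at least 1 FPKM in at least 3 libraries. All but CLK4 reached it in every library, CLK4 was under it in knockdown replicate 3, and SRSF12 did not pass. In a limma fit over all 12191 tested genes, with Benjamini-Hochberg adjustment and a threshold of 0.05, 3 of the 9 fell in the knockdown (SRSF10, TRA2B and SRPK1), 0 rose and 6 did not pass. At an unadjusted p under 0.05, CLK1 is the 1 that was higher, and of all tested genes 18.2% were higher, 19.3% lower and 37.4% either at that level. Of all tested genes 12.5% fell, 12.6% rose and 25.2% were called in either direction. The median log2 fold change of the 9 was -0.06, beside -0.01 for all tested genes. Groups did not overlap for 4 of the 9, 3 lower and CLK1 higher, and this was so for 42.7% of all tested genes, 22.0% lower and 20.6% higher in the knockdown. Since SRSF10 is the target of the knockdown, its fall checks the labels and is not a result about the other genes. The counts, the median and the non-overlapping groups above include SRSF10. Without it, the members called were TRA2B and SRPK1, and the groups of those and CLK1 did not overlap. TRA2B lies on chromosome 3, where 43.8% of the other tested genes fell. In bulk RNA, fewer cells with a transcript and less of it per cell cannot be told apart.

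**Figure D1:**
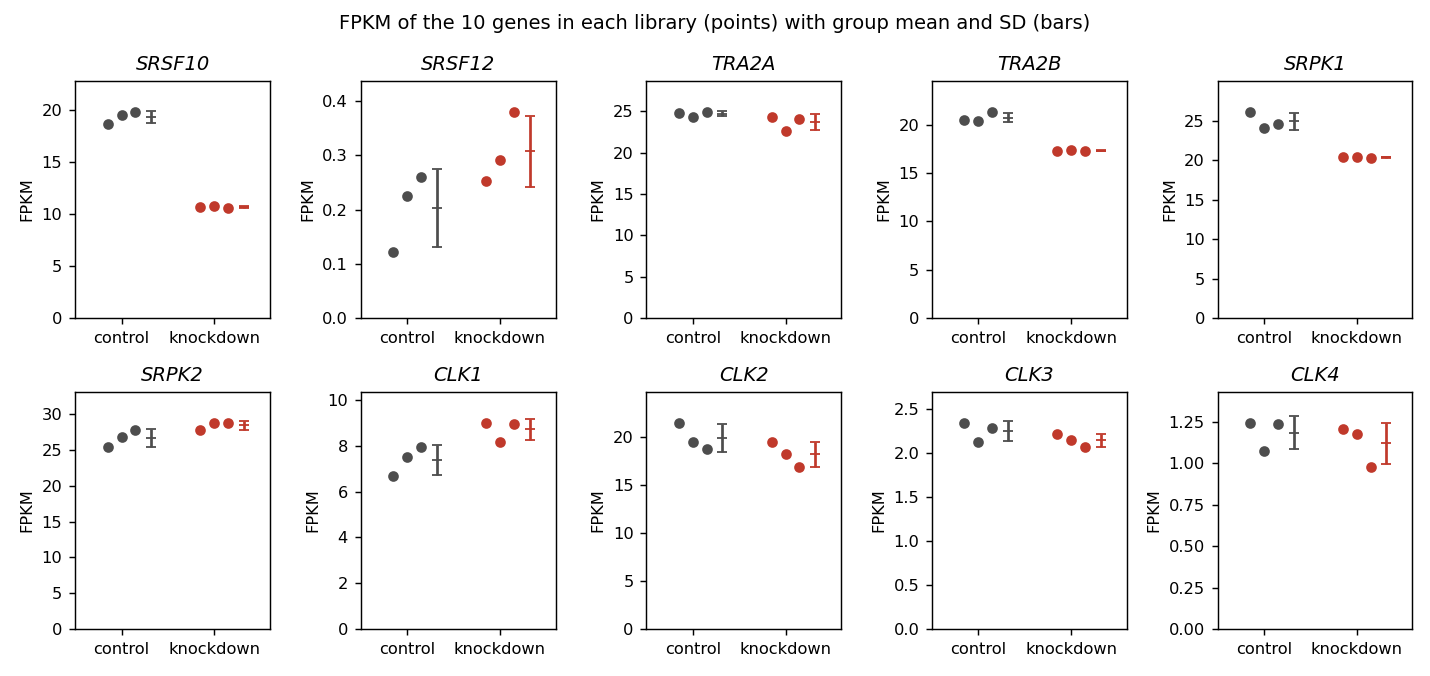
FPKM (vertical axes, from 0, scaled per gene) of the 10 genes in the 3 control and 3 knockdown libraries, with points for libraries and bars for the mean and SD of a group. The knockdown libraries of SRSF10, TRA2B and SRPK1 lie below all controls, those of CLK1 lie above all controls, and the groups of the other genes overlap.

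Sequences before the RefSeq starts of SRSF10 and TRA2B, the splicing factors of this set that fell, are shown because they share a short match. SRSF10 is the target of the knockdown, so its fall gives no information on these sequences. Sequences are from RefSeq on GRCh38.p14, which listed windows for 9 of the 10 genes, all but TRA2A. Each is written 5′ to 3′ on the minus strand, on which both genes lie, and covers the part of the 250 bases before the RefSeq start that no exon of a coding or nonsense-mediated-decay transcript in GENCODE 29 reaches. Capitals mark the letters TTTCCCGC, on either strand, which form an E2F-type motif. The SRSF10 stretch is chr1:23980357-23980577 and the TRA2B stretch is chr3:185938137-185938264. The SRSF10 stretch lies inside the GENCODE 29 span of its gene, which begins at 23980927 on the minus strand. It is therefore not upstream of every annotated transcript, and exons of other transcript types were not removed. The TRA2B stretch lies outside the GENCODE 29 span of its gene.
SRSF10: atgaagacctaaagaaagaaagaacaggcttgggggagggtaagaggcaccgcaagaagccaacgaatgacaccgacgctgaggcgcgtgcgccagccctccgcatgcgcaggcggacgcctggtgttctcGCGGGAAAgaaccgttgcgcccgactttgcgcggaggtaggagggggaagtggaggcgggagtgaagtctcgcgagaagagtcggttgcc
TRA2B: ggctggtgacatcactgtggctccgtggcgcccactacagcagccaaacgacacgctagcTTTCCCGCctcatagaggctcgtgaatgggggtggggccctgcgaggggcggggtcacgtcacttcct
In SRSF10 the match is on the other strand, at bases 132 to 139 of the 221 printed, and in TRA2B it is on the printed strand, at bases 61 to 68 of 128.

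Over all 35116 RefSeq windows, 1.24% held TTTCCCGC within their first 221 bases and 0.692% within their first 128. Among the 9 genes with a window, SRSF10 and TRA2B were the 2 that held it in the 250 upstream bases. These genes had 14 windows, since some had several starts. TRA2A had no window and was not searched. SRPK1, the third gene that fell, did not, and nearly all of its window lies in annotated exons, so it is not printed. TTTCCCGC is 1 of 7 motifs searched on both strands and is marked because both stretches hold it. The others were the GC box GGGGCGGGG (15.1% of all windows of 250 bases), an NRF1-type motif (5.07%), the CRE-type motif TGACG (21.2%), the E box CACGTG (6.34%), the ETS-type motif CCGGAAG (8.52%) and CCAAT (32.0%). Among tested genes that were not called, counted per gene, the shares were higher. They were 31.4% for the GC box, 13.9% for the NRF1-type motif, 36.5% for the CRE-type motif and 2.97% for TTTCCCGC. The E box was at 11.4%, the ETS-type motif at 22.2% and CCAAT at 41.2%. The SRSF10 stretch also held the NRF1-type motif, and the TRA2B stretch the GC box and the CRE-type motif. No motif overlaps TTTCCCGC in either stretch. In 250 bases TTTCCCGC was in 50 of 1190 genes with a window that fell, 25 of 1139 that rose and 185 of 6230 that were not called. These shares are descriptions, and a match is not evidence of binding.

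SRSF10 (ENSG00000188529, chromosome 1, 23964804 to 23980927 in GENCODE 29 on GRCh38, minus strand like all but CLK3) had the largest fall of the tested genes in the set. Its control libraries held 18.6, 19.5 and 19.8 FPKM and its knockdown libraries 10.6, 10.8 and 10.6 FPKM, so every knockdown library lay well under every control. The mean fell by 44.8%, from 19.3 ± 0.61 to 10.7 ± 0.12 FPKM (SD over 3 libraries each). An estimated 1384.5 to 2757.7 fragments per library stand behind these values. On the log2(FPKM + 1) scale the change was -0.80 (95% interval -0.89 to -0.71, limma adjusted p = 0.000166), and its size exceeded that of 97.5% of tested genes. The knockdown mean was 0.552 times the control mean, so SRSF10 transcript was reduced and still present at 10.6 FPKM or more. Genes within 5 Mb of SRSF10 on chromosome 1 had a median log2 change of 0.03 (113 tested genes, 8 lower and 12 higher).

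SRSF12 (ENSG00000154548, chromosome 6, 89095959 to 89118081), the closest relative of SRSF10 and a repressor of splicing in earlier assays, was barely expressed. Control libraries held 0.123, 0.225 and 0.260 FPKM, and knockdown libraries 0.252, 0.291 and 0.380 FPKM, from an estimated 8 to 22 fragments per library. The groups overlap, since knockdown replicate 1 lies below control replicate 3. Counting error alone gives a coefficient of variation (CV) of 25.4% at this depth, and the CV between controls was 35.3%. In a fit with no filter the log2 change was 0.12 (95% interval -0.06 to 0.30, limma adjusted p = 0.469). The sum of SRSF10 and SRSF12 followed SRSF10, from 19.5 ± 0.68 to 10.98 ± 0.10 FPKM. SRSF12 made up 1.03% ± 0.34 of that sum in the controls and 2.80% ± 0.60 in the knockdown (SD, n = 3 per group), so the relative stayed a small part of the pair in every library.

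TRA2B fell and TRA2A was not called. TRA2B (ENSG00000136527, chromosome 3, 185915906 to 185938136) is a sequence-specific activator of exon inclusion. Control libraries held 20.5, 20.4 and 21.3 FPKM of it, and knockdown libraries 17.3, 17.4 and 17.3 FPKM. All knockdown values lie under all controls, and the gap between the groups is larger than the range within either. The mean fell by 16.5%, from 20.7 ± 0.50 to 17.3 ± 0.042 FPKM (SD over 3 libraries each), and the log2 change was -0.25 (95% interval -0.33 to -0.17, limma adjusted p = 0.00338). The CV of the knockdown libraries, 0.243%, is under the 1.82% that counting error alone gives, so this SD understates the uncertainty. That change is smaller than the median size of 0.31 among all called genes.

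TRA2B lies on chromosome 3, whose other tested genes were lower as a group. Their median log2 change was -0.19, and 43.8% of the 717 fell. Within 5 Mb of TRA2B the median was -0.13 over 52 genes, of which 20 fell and 5 rose. The change of TRA2B, -0.25, is larger in size than either median, and the part of the chromosome in the result was not tested. For comparison, the other tested genes of the chromosomes that hold the remaining members had medians between -0.03 and 0.03.

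TRA2A (ENSG00000164548, chromosome 7, 23504780 to 23532041) is the paralog with the same type of RNA target. Its levels were 24.8, 24.3 and 24.9 FPKM without the knockdown and 24.4, 22.6 and 24.1 FPKM with it. Knockdown replicate 1 lies above control replicate 2, so the groups overlap. The log2 change was -0.06, and its 95% interval of -0.15 to 0.03 leaves room for a fall to 0.902 times or a rise to 1.02 times the control value of FPKM + 1 (limma adjusted p = 0.330). Within a library, the ratio of TRA2A to TRA2B was 1.21, 1.19 and 1.17 in the controls and 1.41, 1.30 and 1.39 in the knockdown, with no overlap. The level of this ratio depends on exon length, 3516 bases for TRA2A and 11769 for TRA2B. The sum of the pair was lower, from 45.4 ± 0.75 to 40.998 ± 0.88 FPKM. A two-sided exact permutation test gave p = 0.1, the lowest that 3 against 3 allows, and 0.133 after adjustment over 4 family sums. Those 4 include the sum with SRSF10, the target of the knockdown, so the adjusted value is lower than it would be without it.

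Of the SRPK kinases, SRPK1 fell and SRPK2 was not called. SRPK1 (ENSG00000096063, chromosome 6, 35832966 to 35921342) held 26.1, 24.02 and 24.6 FPKM in control libraries against 20.4, 20.3 and 20.3 FPKM in knockdown libraries, with all knockdown libraries below all controls. The mean fell by 18.4%, from 24.9 ± 1.06 to 20.3 ± 0.071 FPKM (SD over 3 libraries each). Its log2 change of -0.28 had a 95% interval of -0.37 to -0.19 (limma adjusted p = 0.00371). As for TRA2B, the CV of the knockdown libraries (0.350%) was under counting error (2.21%). Genes within 5 Mb of SRPK1 on chromosome 6 had a median log2 change of 0.01 (111 tested genes). Exons of SRPK1 overlap those of LHFPL5 by 265 bases, but LHFPL5 was at no more than 1.08 FPKM in any library.

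SRPK2 (ENSG00000135250, chromosome 7, 105110704 to 105399308) is the partner kinase with the same type of substrate. Its levels were 25.4, 26.8 and 27.8 FPKM without the knockdown and 27.8, 28.8 and 28.8 FPKM with it. The highest control lies just above the lowest knockdown library. The log2 change of 0.09 was not called (95% interval -0.01 to 0.19, limma adjusted p = 0.167). An antisense gene, AC004884.2, overlaps 136 bases of SRPK2 exons and averaged 1.73 FPKM in control and 2.21 FPKM in knockdown libraries (limma adjusted p = 0.508). A stretch of 98 bases is shared with exons of KMT2E on the opposite strand, a gene that rose from 19.1 to 22.2 FPKM (limma adjusted p = 0.0297). The strand setting is not given in the sources used here, and the part of those reads in SRPK2 was not tested.

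The share of SRPK1 in the pair did not overlap between the groups. SRPK1 made up 50.7%, 47.3% and 46.9% of the SRPK1 and SRPK2 sum in the controls and 42.4%, 41.4% and 41.3% in the knockdown. SRPK1 was therefore level with SRPK2 or slightly under it in the controls and clearly under it in the knockdown. The log2 ratio of SRPK1 to SRPK2 changed by -0.37, with p = 0.1 in a two-sided exact permutation test (its lowest value) and 0.15 after adjustment over the 9 pairs of related genes compared. Those 9 include the pair with SRSF10, the target of the knockdown, which also lowers the adjusted value. The sum itself was 51.6 ± 0.84 FPKM in control libraries and 48.8 ± 0.55 FPKM in knockdown libraries, a change of -5.39%, and its groups do not overlap.

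**Figure D2:**
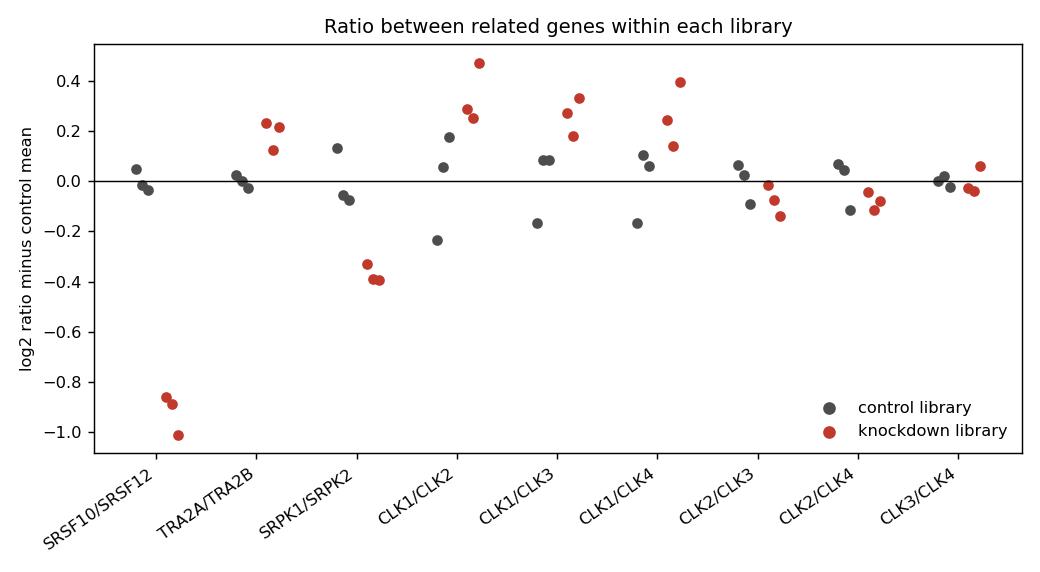
Log2 ratio of (FPKM + 1) between related genes in each library, minus the mean of the controls (vertical axis), for 9 pairs, with grey points for control and red points for knockdown libraries. The pairs SRSF10/SRSF12 and SRPK1/SRPK2 lie lower in all knockdown libraries, TRA2A/TRA2B and the 3 pairs led by CLK1 lie higher in all, and the pairs among CLK2, CLK3 and CLK4 overlap.

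None of the CLK kinases passed the threshold. CLK1 (ENSG00000013441, chromosome 2, 200853009 to 200864744), a dual-specificity kinase of SR proteins whose own transcript is subject to regulated splicing, came nearest. Its control libraries held 6.67, 7.53 and 7.95 FPKM and its knockdown libraries 9.02, 8.18 and 8.96 FPKM, with every knockdown library above every control. The mean was 18.1% higher, but the controls differed among themselves with a CV of 8.84%, and the log2 change of 0.22 (95% interval 0.05 to 0.38) had a limma adjusted p of 0.0626. Without control replicate 3 it was 0.26 (adjusted p = 0.0444), and with a filter of 5 FPKM the adjusted p was 0.0437. Over all 14 alternatives the adjusted p ran from 0.0437 to 0.165.

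CLK2 (ENSG00000176444, chromosome 1, 155262868 to 155278491) was the most abundant CLK per length. Its levels were 21.5, 19.4 and 18.8 FPKM without the knockdown and 19.5, 18.2 and 16.9 FPKM with it. The groups overlap through knockdown replicate 1. Its log2 change was -0.12 (95% interval -0.28 to 0.04, limma adjusted p = 0.235). CLK3 (ENSG00000179335, chromosome 15, 74598500 to 74645414, plus strand) held 2.34, 2.12 and 2.27 FPKM in control libraries and 2.21, 2.15 and 2.07 FPKM in knockdown libraries. The groups overlap, with a log2 change of -0.05 (95% interval -0.20 to 0.10, limma adjusted p = 0.643). CLK4 (ENSG00000113240, chromosome 5, 178602664 to 178630615) was the lowest tested gene of the set. Its levels were 1.25, 1.07 and 1.24 FPKM without the knockdown and 1.21, 1.18 and 0.978 FPKM with it. An estimated 98.8 to 141.7 fragments per library give it a counting error of 8.99%, and the interval of its log2 change, -0.26 to 0.17, is accordingly wide. Exons of CLK3 overlap those of EDC3 on the opposite strand by 701 bases, and EDC3 averaged 7.88 FPKM in control and 8.54 FPKM in knockdown libraries (limma adjusted p = 0.174).

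The CLK kinases together summed to 31.8, 30.2 and 30.3 FPKM without the knockdown and 31.9, 29.7 and 28.9 FPKM with it. These groups overlap (p = 0.6 in a two-sided exact permutation test). CLK1 made up 21.0%, 25.0% and 26.3% of the sum in the controls and 28.3%, 27.5% and 31.0% in the knockdown, and CLK2 67.7%, 64.4% and 62.1% and then 61.0%, 61.3% and 58.5%. Neither share overlaps between the groups, although the nearest libraries lie close together. The sum and the shares depend on exon length, 5170 bases for CLK1, 3670 for CLK2 and 20443 for CLK3. The log2 ratio of CLK1 to CLK2 was higher in all knockdown libraries, by 0.34 on average, with p = 0.1 in the same exact permutation test and 0.15 after adjustment over the same 9 pairs, that of SRSF10 included. Between CLK3 and CLK4 the change of the log2 ratio was -0.0025, with p = 0.9 in the same exact permutation test.

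**Figure D3:**
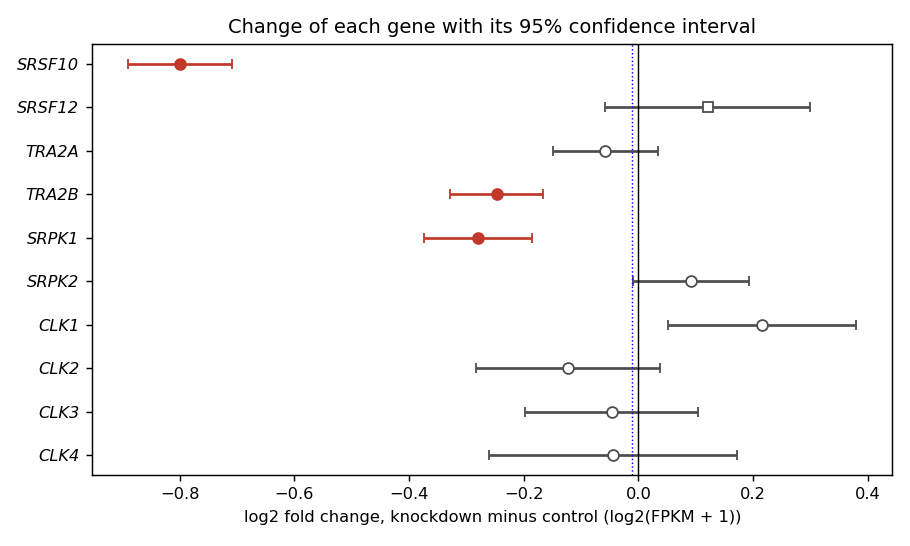
Log2 fold change, knockdown minus control, on the log2(FPKM + 1) scale (horizontal axis) of each gene, with 95% confidence intervals. Filled red circles mark SRSF10, TRA2B and SRPK1, which passed the threshold, the square marks SRSF12 from the fit with no filter, and the dotted line is the median of all tested genes (-0.01).

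Per length, the SRPK kinases, CLK2 and both TRA2 factors were more abundant than SRSF10 in every knockdown library. In the controls the order by mean FPKM was SRPK2, SRPK1, TRA2A, TRA2B, CLK2, SRSF10, CLK1, CLK3, CLK4 and SRSF12. Values of SRPK2 and SRPK1, of SRPK1 and TRA2A, of TRA2B and CLK2, and of CLK2 and SRSF10 overlap, so these neighbours are not separated by the spread between libraries. In the knockdown the order was SRPK2, TRA2A, SRPK1, CLK2, TRA2B, SRSF10, CLK1, CLK3, CLK4 and SRSF12. The neighbours that overlap there are CLK2 and TRA2B alone. SRSF10, which overlapped CLK2 in the controls, was then separated from CLK2 and TRA2B and stood closest to CLK1. Among all tested genes the mean level of SRPK2 ranked above 88.7%, that of SRSF10 above 77.3% and that of CLK4 above 5.34%.

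By likeness of pattern, measured as the root mean square difference between log2(FPKM + 1) values centred over the 6 libraries, the protein-coding genes nearest to SRSF10 with a mean of at least 5 FPKM were GOLM1 (0.068), FAM13B (0.068), CDC7 (0.072), FERMT1 (0.072) and FOXQ1 (0.075). CDC7, a kinase that triggers origin firing, went from 13.7 to 7.99 FPKM, and FERMT1, an integrin activator, from 9.53 to 5.47 FPKM. The measure picks genes with a step between the groups like that of SRSF10, so these falls follow from the choice. Members of the set, which changed less than SRSF10, were far from it, with SRPK1 nearest (0.27), then TRA2B (0.28), and CLK1 farthest (0.51).

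Genes that act on or beside SR proteins were read from 6 further lists, and 2 of them held falls and 0 rises. Of the other SR proteins 6 of 10 tested members fell and 0 rose, where 12.5% of all tested genes fell and 12.6% rose. The median log2 change of this list was -0.15, beside -0.01 for all tested genes. At an unadjusted p under 0.05 in limma, 8 other SR proteins were lower and 0 higher, where 19.3% and 18.2% of all tested genes were. SRSF2 fell from 53.3 ± 3.2 to 41.3 ± 0.62 FPKM, SRSF6 from 32.8 ± 3.1 to 26.9 ± 0.78 FPKM and SRSF3 from 43.8 ± 2.5 to 38.0 ± 0.34 FPKM (SD, n = 3 per group). Of SR-related proteins with RS domains 10 of 22 tested members fell and 0 rose, with a median of -0.14, and 15 were lower and 0 higher at an unadjusted p under 0.05 in limma. These include BCLAF1, a regulator of transcription and RNA processing (32.2 ± 1.1 to 24.5 ± 0.43 FPKM), PNN, an exon junction-associated factor (61.04 ± 1.5 to 48.8 ± 0.61 FPKM) and SNRNP70, the RNA-binding protein of the U1 particle (56.4 ± 0.16 to 48.6 ± 0.87 FPKM). With a filter of 5 FPKM, which every tested member of both lists passed, 7 of 10 and 11 of 22 fell and 0 rose. Of all 6824 genes tested with that filter, 1319 fell and 1086 rose, with a median of -0.02. Both counts of adjusted calls at the main filter drop when a library is left out, as did the calls over all genes, from 3067 to between 1858 and 2679. Without knockdown replicate 1, 2 or 3 the falls among other SR proteins numbered 1 each, and without control replicate 3 they numbered 2. With the replicate block they numbered 3, and 6 among the SR-related proteins. For the latter, 5 fell without control replicate 1, 6 without control replicate 3, 4 without knockdown replicate 2 and 5 without knockdown replicate 3. The changes themselves moved less. Over the 6 left-out libraries the median log2 change stayed between -0.18 and -0.13 for other SR proteins and between -0.16 and -0.12 for SR-related proteins. At an unadjusted p under 0.05 in limma, 7 other SR proteins and 10 to 15 SR-related proteins were lower in those fits, and 0 were higher.

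Of 16 tested members among other kinases of SR or spliceosome proteins 5 rose and 1 fell, where 12.6% of all tested genes rose and 12.5% fell. The list is broad, and whether each member acts on SR or spliceosome proteins in these cells was not tested. Their median log2 change was -0.02, near that of all tested genes. DYRK2 rose from 7.85 ± 0.43 to 10.4 ± 0.51 FPKM, DYRK3, a kinase that dissolves nuclear and cytoplasmic condensates, from 2.07 ± 0.19 to 3.01 ± 0.040 FPKM, and HIPK2 from 33.8 ± 1.3 to 38.0 ± 0.33 FPKM (SD, n = 3 per group). PRPF4B, a kinase of the spliceosome, fell from 25.1 ± 0.76 to 21.8 ± 0.75 FPKM. Without control replicate 1 or 2 there were 3 calls among the kinases, and without knockdown replicate 2 or 3 there were 2. At an unadjusted p under 0.05 in limma, 5 were higher and 2 lower with all libraries, and 5 to 6 were higher and 1 to 2 lower with a library left out.

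Phosphatases, importers and retention factors changed at about the background rate, which was 12.6% higher and 12.5% lower over all tested genes. Among 8 phosphatases and nuclear targeting subunits 1 rose and 1 fell, with a median of -0.06. PPP2CB, a catalytic subunit of protein phosphatase 2A, went from 13.1 ± 0.71 to 15.0 ± 0.55 FPKM, and PPM1G, a metal-dependent phosphatase, from 80.3 ± 3.3 to 71.8 ± 0.29 FPKM. Without knockdown replicate 1, 2 or 3 limma called 0 phosphatases, with 2, 4 and 4 at an unadjusted p under 0.05, and it called 1 without control replicate 2 or 3. With all libraries, 37.4% of all tested genes reached that unadjusted level. Among 13 import receptors, 14-3-3 proteins and chaperones that hold SRPK kinases in the cytoplasm 1 rose and 2 fell, with a median of -0.03. TNPO3, the import receptor of phosphorylated SR proteins, fell from 41.5 ± 0.77 to 37.6 ± 0.84 FPKM. Among 7 genes of 14-3-3 proteins, which bind phosphorylated SRSF10, 5 were not called, YWHAZ rose from 240.4 ± 8.8 to 271 ± 3.8 FPKM and YWHAH fell from 46.5 ± 2.9 to 37.9 ± 1.2 FPKM. Without knockdown replicate 1 or 2 there was 1 call in this list.

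Genes reported elsewhere as splicing targets of SRSF10 or TRA2 proteins were read for their level alone. Of 9 tested members 2 were called higher and 2 lower, with a median log2 change of 0.06, where 25.2% of all tested genes were called. LPIN1, a phosphatidate phosphatase whose exon use SRSF10 controls in fat cells, rose from 1.43 ± 0.038 to 2.36 ± 0.11 FPKM (log2 change 0.47, limma adjusted p = 0.00379). IL1RAP, the accessory receptor of interleukin 1, was at 0.999, 0.919 and 1.07 FPKM in control libraries and 1.73, 1.73 and 1.61 FPKM in knockdown libraries. It passed the filter only through the knockdown group, so its call supports nothing. BCLAF1, also in the list of SR-related proteins, fell by 0.38 on the log2 scale, and CHEK1, the replication checkpoint kinase, fell from 14.6 ± 0.86 to 12.4 ± 0.35 FPKM.

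**Figure D4:**
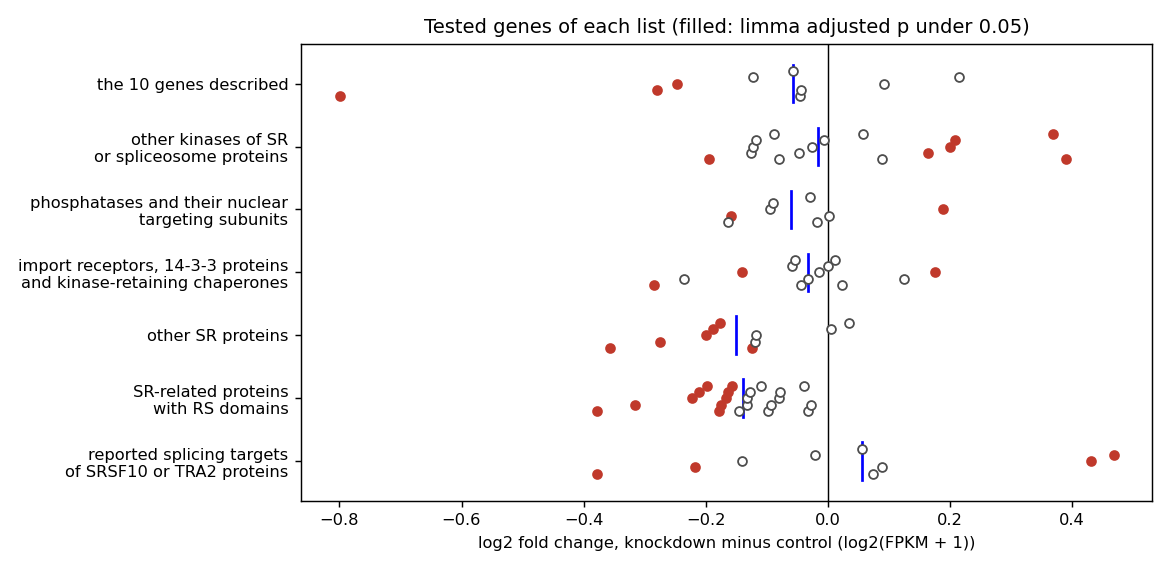
Log2 fold change, knockdown minus control, on the log2(FPKM + 1) scale (horizontal axis) of the tested genes of each list (rows), with red filled points for genes that passed the limma threshold and blue bars for list medians. Falls without rises are seen in the other SR proteins (6 of 10) and the SR-related proteins (10 of 22), while 5 of 16 other kinases rose and 1 fell. Of all tested genes 12.5% fell and 12.6% rose.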

How the data were processed

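The 6 libraries were measured by RNA-seq. Per the labels' protocols, TRIzol RNA and a Vazyme VAHTS Universal kit were used for Illumina sequencing. The build was GRCh38, and reads went through Trim Galore 0.6.5-1 and FastQC 0.11.9, per the submitters' processing notes. For the aligner, counter, annotation and strand setting, the sources used here give no name. Expression values were deposited as FPKM, made by the authors. They were tested with limma 3.58.1 in R 4.3.3 on log2(FPKM + 1), with a trend on mean expression and the group as the only term. A log2 fold change on that scale understates changes of low genes. FPKM are shares, so other transcripts can shift them.

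The members and lists were chosen with earlier results of these data known. All 10 members are named, and in each further list up to 3 called genes per direction with the smallest adjusted p. Positions and overlaps come from GENCODE 29. Depth was estimated from the steps between low FPKM values, of which 86.9% to 87.5% fell within 0.05 of a whole number of fragments. Squared differences between replicates were 1.69 to 3.03 times those of counting noise (median over genes), so no library was counted as a copy of another. Exact permutation tests used SciPy 1.17.1. Alternatives were a pseudocount of 0.1, no filter, a filter of 5 FPKM, omission of each library, a block for the replicate number, 3 other scalings and no trend.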

Additional observations from a re-analysis of the deposited data

How the results depend on the processing

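SRSF10, TRA2B and SRPK1 stayed lower and past the threshold in all 14 alternatives, with adjusted p up to 0.00285, 0.0184 and 0.0195, and leaving out a library moved their log2 changes between -0.82 and -0.78, -0.26 and -0.23, and -0.30 and -0.25. CLK1 was called with a filter of 5 FPKM (0.22) and without control replicate 3, with a range of 0.15 to 0.26 over left-out libraries. CLK4 changed sign (0.0054) without knockdown replicate 3, in a range of -0.082 to 0.0054. SRSF12 could be fitted with no filter alone.

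Over left-out libraries the genes called numbered 894 to 1352 higher and 964 to 1327 lower, and with no filter 1013 were lower. Calls then ran from 2 to 5 among other kinases, 0 to 2 among phosphatases, 1 to 3 among importers and 14-3-3 proteins, 1 to 5 among other SR proteins, 4 to 8 among SR-related proteins and 3 to 4 among splicing targets. With no filter limma called 0 phosphatases (4 at an unadjusted p under 0.05), with 1 call among other SR proteins and 5 among SR-related proteins. With a filter of 5 FPKM there were 5 among importers and 14-3-3 proteins and 2 among splicing targets. With no trend limma called 0 phosphatases (again 4 at an unadjusted p under 0.05), and with median-of-ratios scaling 3 other SR proteins were.

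The replicate numbers showed no clear pairing of the libraries across genes, and the labels do not say whether replicates were paired. Deviations of same-numbered libraries from their group means correlated with r = 0.016, 0.057 and -0.071 across genes. With the replicate block 3 other SR proteins and 6 SR-related proteins were called, and 1193 genes were higher and 1146 lower, while no member changed its call. The limma adjusted p of CLK2 went from 0.235 to 0.0918 with the block. Members lower at an unadjusted p under 0.05 in limma went from 3 to 4.

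The CLK sum was 0.312% higher without knockdown replicate 3, in a range of -4.55% to 0.312%. The log2 ratio of SRSF10 to SRSF12 changed by -1.30 with a pseudocount of 0.1. That of CLK3 to CLK4 changed sign, at 0.012 with a pseudocount of 0.1 and from -0.035 to 0.017 over left-out libraries. Depth limits SRSF12 and CLK4 most. With 3 libraries per group no exact permutation test can go under 0.1.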
